A study of Rattus norvegicus with 58 samples.

Results

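The comparison described here is the early step of muscle aging in the hindlimb, gastrocnemius of male Wistar rats of 18 months against gastrocnemius of male Wistar rats of 8 months. Its members were chosen by muscle and age in the sample labels, which gave 20 of the 58 RNA-seq libraries of the study, 10 from rats of 8 months (rats 1 to 10, adult) and 10 from rats of 18 months (rats 11 to 20, early-sarcopenic). No treatment is given in the labels, and each rat was sampled at 1 age, so an order in time is read between groups of different animals. Where the next interval is shown, the 9 gastrocnemius libraries of 24 months (sarcopenic) were used, and triceps brachii, a forelimb muscle, came from the same rats. Whole muscle was sequenced, and in such bulk samples more cells of a type and more RNA per cell cannot be told apart.

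Gastrocnemius is a mixed calf muscle whose fibres are driven by motor nerve endings at neuromuscular junctions. In a mature fibre, the acetylcholine receptor and the kinase that clusters it, MuSK, are made under the nerve ending, and loss of the nerve is known to let their genes, and those of neural cell adhesion molecule and of myogenic factors, become active along the fibre. Stress and DNA damage act through p53 on inhibitors of cyclin-dependent kinases, while muscle wasting runs through ubiquitin ligases and lowered energy metabolism.

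All 8 measured markers of skeletal muscle fibres (among them Actn3 and Atp2a1) were read in the 20 libraries, with a summed level of 28200 to 56000 CPM at 8 months and 18800 to 47700 CPM at 18 months. Levels are given throughout as CPM, the reads of a gene per 1000000 reads of its library after TMM scaling. The libraries held 14966608 to 29398080 counted reads at 8 months and 12767191 to 32351192 at 18 months. Genes are named by symbol where the study's list of gene symbols pairs it with an identifier, which was the case for 2163 of the 14947 genes tested. The study presents that list as genes that changed with age in gastrocnemius and triceps in these same libraries. Its model also held terms for the difference between the muscles. A count over named genes is therefore not independent evidence of a direction, a number of calls or a difference between the muscles. Listed genes that carried no symbol here count as not measured, whether or not they had reads. Genes with a symbol were called more often than all genes, and both shares stand beside the counts below.

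In a principal component analysis of the 20 libraries, the second component, with 16% of the variance, separated the ages. The 8-month libraries lay between -28.3 and -6.83 on it, and the 18-month libraries between -0.181 and 49.6. The first component, with 19.7% of the variance, set apart rat 4 of 8 months and rats 14 and 17 of 18 months. These 3 libraries lay at 43.6 to 67.6, and the other 17 at -28.4 to 13.3. Of 14947 genes, 430 were lower and 385 higher in all 3 than in each of the other 17. The 3 were set apart by these same levels, so such genes describe the split and do not test it. Actn3, Mybpc2 and Flt1 are examples chosen from the gene lists. Actn3, the alpha-actinin of fast fibres, was 11700 to 14100 CPM in the 3 and 3110 to 10200 CPM in the 17, and Mybpc2, the myosin-binding protein C of fast fibres, was 6680 to 6780 against 2090 to 6020 CPM. Flt1, a receptor of the endothelium for vascular endothelial growth factor, lay at 25.9 to 44.0 CPM in the 3 and at 56.6 to 94.4 CPM in the 17. The results below are given with these rats, and calls of named genes from 8 to 18 months in gastrocnemius that were lost without them are marked.

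**Figure D1:**
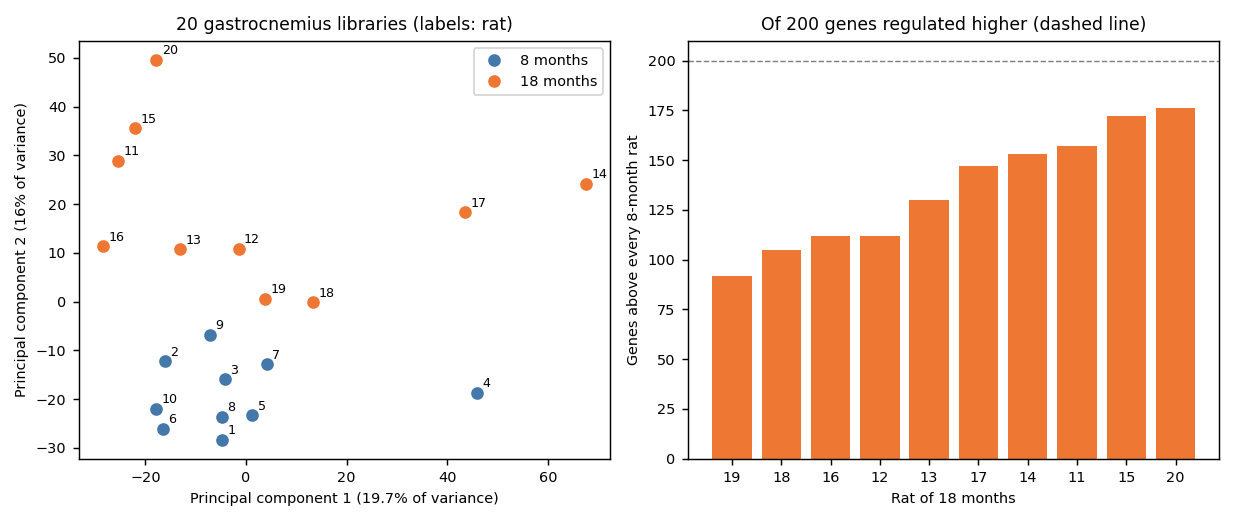
Left, the first and second principal components of the 20 gastrocnemius libraries (log2 CPM), numbered by rat, with the share of variance on each axis. Right, for each rat of 18 months, how many of the 200 genes that rose above 2-fold by 18 months exceeded every 8-month rat. Rats 4, 14 and 17 lie at 43.6 to 67.6 on the first axis, and the bars run from 92 genes in rat 19 to 176 in rat 20.

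By 18 months the gastrocnemius had mainly gained transcripts. A gene was called regulated when its adjusted p (edgeR quasi-likelihood test, Benjamini-Hochberg over all genes) was below 0.05 and its fold change above 2. Of 14947 genes, 200 rose (1.34%) and 35 fell (0.234%), together 1.57%, while over all genes the median log2 fold change was 0.01. With no limit on fold change, 510 genes rose (3.41%) and 183 fell (1.22%), together 4.64%. In 43 genes (0.288%) the lowest 18-month library stood above the highest 8-month library, and in 6 (0.0401%) the highest 18-month library stood below every 8-month one. Without rats 4, 14 and 17 the regulated genes numbered 155 higher and 18 lower, 160 of them among the 235. Of the 35 that fell, 22 had a mean below 1 CPM at both ages, and 5 had a symbol.

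The 10 named genes with the largest rises (level of at least 1 CPM at either age, same direction with each of the 20 rats left out in turn) held a cell cycle inhibitor, a stress protein of the sarcomere, membrane proteins and genes best known from other tissues. Cdkn1a encodes p21, the cyclin-dependent kinase inhibitor that p53 switches on. Its level was 12.8, 25.1 and 37.9 CPM (lowest, median and highest) at 8 months and 109, 181 and 432 CPM at 18 months. Every 18-month rat stood above every 8-month rat, and the log2 fold change was 3.19 (SE 0.32 and adjusted p = 6.09e-10). Ankrd1, an ankyrin repeat protein that binds titin and responds to stretch and denervation, went from 11.2, 32.3 and 54.3 CPM to 47.1, 89.9 and 680 CPM, a log2 fold change of 2.82 (SE 0.54 and adjusted p = 4.80e-04). Its groups overlapped, and rats 11, 15 and 20 held 477, 354 and 680 CPM while the other 7 rats of 18 months held at most 106 CPM.

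Ctxn3, which encodes a small membrane protein of the cortexin family, was 1.12, 1.82 and 5.49 CPM in adult and 11.3, 26.9 and 72.6 CPM in early-sarcopenic gastrocnemius. No library of one age reached the range of the other, and the log2 fold change was 3.75 (SE 0.37 and adjusted p = 3.46e-10). Tmem158, a membrane protein gene known as a target of Ras signalling, rose from 1.31, 1.76 and 2.95 CPM to 5.55, 12.8 and 56.5 CPM, by 3.65 on the log2 scale (SE 0.39 and adjusted p = 2.01e-09). It was also apart between the ages, with rats 11, 14 and 20 at 41.1 to 56.5 CPM. Prrt4, a proline-rich membrane protein gene, was 0.581, 2.01 and 6.85 CPM and then 8.27, 20.7 and 44.1 CPM, again without overlap, with a log2 fold change of 3.30 (SE 0.53 and adjusted p = 2.62e-05). Ppp1r14c, an inhibitor of protein phosphatase 1, was 0.455, 0.980 and 3.86 CPM and then 3.63, 12.1 and 40.1 CPM, with 9 of 10 early-sarcopenic rats above all adults and a log2 fold change of 3.35 (SE 0.46 and adjusted p = 1.27e-06).

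The remaining 4 were low in adult muscle. Krt18, an intermediate filament gene of simple epithelia, had 14 reads over the 10 adult libraries and 681 over the 10 early-sarcopenic ones. Its level was at most 0.354 CPM in adults and 0.822, 2.27 and 6.99 CPM at 18 months, a log2 fold change of 5.28 (SE 0.62 and adjusted p = 3.01e-08) that became 6.06 without rat 5. Slc12a3, the thiazide-sensitive sodium chloride cotransporter of the kidney, went from at most 0.447 CPM (31 reads) to 0.480, 1.39 and 2.57 CPM (324 reads), by 3.14 on the log2 scale (SE 0.43 and adjusted p = 1.27e-06). Both genes were higher in every 18-month rat than in any adult. Serpina12, the adipokine vaspin, rose from 0.262, 0.669 and 1.68 CPM to 1.85, 4.52 and 19.5 CPM, without overlap (log2 fold change 3.09, SE 0.34 and adjusted p = 5.52e-09). The one measured marker of fat, Lipe, was 20.2 to 43.3 CPM at 8 months and 12.7 to 49.2 CPM at 18 months (log2 fold change -0.38, adjusted p = 0.231). Sdr9c7, a short-chain dehydrogenase of the epidermis, was 0 to 0.422 CPM and then 0.411, 0.578 and 4.87 CPM, with rats 15 and 20 at 4.87 and 3.14 CPM and the other 8 below 1 CPM, and its log2 fold change of 2.95 (SE 0.55 and adjusted p = 3.15e-04) was 2.37 without rat 15.

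**Figure D2:**
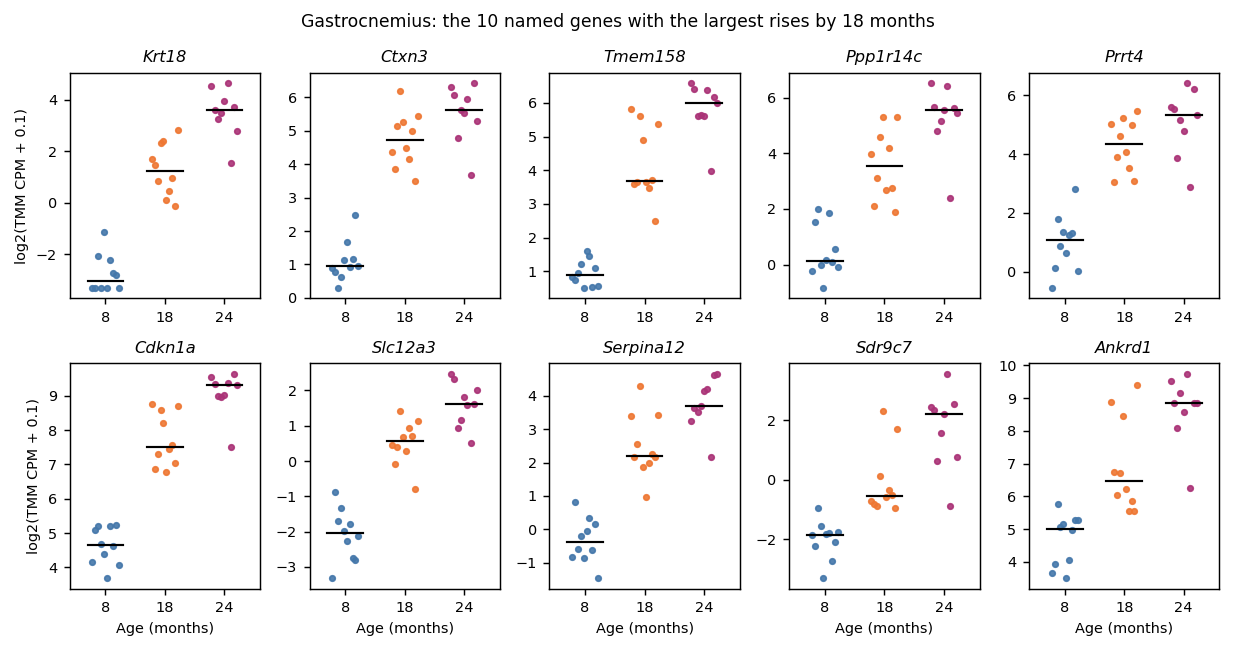
Levels of the 10 named genes with the largest rises in each gastrocnemius library, as log2(CPM + 0.1) against age in months (10, 10 and 9 rats), with a line at the group median. In Krt18, Ctxn3, Tmem158, Prrt4, Cdkn1a, Slc12a3 and Serpina12 no 18-month point lies within the 8-month range.

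Only 2 named genes met the same rule among those that fell. Aqp4, the water channel of the fast fibre membrane, was 78.6, 188 and 228 CPM in adults and 21.5, 55.1 and 162 CPM in early-sarcopenic rats, a log2 fold change of -1.07 (SE 0.29 and adjusted p = 0.0172). Snai3, a repressor of the Snail family, was 10.5, 13.5 and 26.4 CPM and then 2.24, 6.94 and 15.7 CPM (-1.02, SE 0.30 and adjusted p = 0.0305). The ages overlapped in both, and both were lowest in rat 14. Without rats 4, 14 and 17 the log2 fold changes were -0.94 and -0.85, under the 2-fold limit, and Snai3 had an adjusted p of 0.111. The 2-fold call of Aqp4 was lost without rat 11, 14 or 20, and Snai3 missed the adjusted p threshold without rat 1, 2, 7, 14, 15, 17 or 20, with values up to 0.0743.

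Genes without a symbol made up 120 of the 235. ENSRNOG00000032857 rose from 0.232, 1.37 and 4.70 CPM to 7.26, 19.5 and 60.0 CPM (log2 fold change 3.83, SE 0.54 and adjusted p = 1.66e-06). ENSRNOG00000002579 rose from 4.30, 6.88 and 9.36 CPM to 11.0, 13.0 and 19.6 CPM (1.01, SE 0.15 and adjusted p = 3.17e-06). Neither gene overlapped between the ages. Without rats 4, 14 and 17 the log2 fold change of ENSRNOG00000002579 was 0.82, under the 2-fold limit. The 2 falls with the smallest p rested on rats 5 and 8 of 8 months. ENSRNOG00000002911 was 52.1 and 17.2 CPM in them and at most 0.571 CPM in the other 8, against at most 1.13 CPM at 18 months, and ENSRNOG00000032669 was 6.93 and 2.06 CPM in them and at most 0.872 CPM in the others, against at most 0.410 CPM. Leaving out rat 5 took the adjusted p of the former to 0.0815, with a log2 fold change of -3.02 in place of -4.76, and that of the latter to 0.237, with -1.23 in place of -2.47.

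Of 18 genes listed for the postsynaptic side of the neuromuscular junction, 5 were measured under a symbol, and 4 rose with an adjusted p below 0.05, 3 of them above 2-fold, and the median log2 fold change of the 5 was 1.21. At that threshold 3.41% of all genes rose and 1.22% fell, and of the 2163 genes with a symbol, among which every list member was found, 13.5% rose and 5.41% fell, with a median of -0.09. Their promoters are shown for 4 genes, because MyoD family factors and the nerve act on such genes through short promoter elements. The sequences are RefSeq's on build GRCr8, from 250 bases before to 50 bases after the start of the transcript, 5′ to 3′ on the gene's strand, in lower case with matches to the E-box CANNTG, which myogenic factors bind, and to the N-box core CCGGAA, on either strand, in capitals.
Chrna1 promoter, chr3:78877304-78877603, minus strand: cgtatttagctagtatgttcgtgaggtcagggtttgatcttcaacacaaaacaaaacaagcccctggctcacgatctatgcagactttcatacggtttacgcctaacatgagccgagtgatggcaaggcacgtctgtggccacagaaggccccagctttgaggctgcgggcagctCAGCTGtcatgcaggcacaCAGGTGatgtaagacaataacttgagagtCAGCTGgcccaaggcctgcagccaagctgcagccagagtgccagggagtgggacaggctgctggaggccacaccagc
Musk promoter, chr5:77853486-77853785, plus strand: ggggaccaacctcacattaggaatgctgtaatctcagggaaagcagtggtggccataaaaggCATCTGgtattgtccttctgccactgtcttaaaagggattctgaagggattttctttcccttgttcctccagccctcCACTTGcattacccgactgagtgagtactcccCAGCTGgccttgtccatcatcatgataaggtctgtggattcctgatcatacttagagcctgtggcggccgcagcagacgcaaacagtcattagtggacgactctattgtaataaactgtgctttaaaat
Chrnb1 promoter, chr10:55015058-55015357, minus strand: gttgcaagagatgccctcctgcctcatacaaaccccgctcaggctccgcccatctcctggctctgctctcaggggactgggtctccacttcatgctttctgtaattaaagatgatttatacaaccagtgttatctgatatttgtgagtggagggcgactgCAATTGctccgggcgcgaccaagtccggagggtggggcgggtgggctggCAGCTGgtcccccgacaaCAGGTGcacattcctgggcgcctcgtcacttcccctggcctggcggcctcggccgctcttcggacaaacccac
Chrne promoter, chr10:55834105-55834404, minus strand: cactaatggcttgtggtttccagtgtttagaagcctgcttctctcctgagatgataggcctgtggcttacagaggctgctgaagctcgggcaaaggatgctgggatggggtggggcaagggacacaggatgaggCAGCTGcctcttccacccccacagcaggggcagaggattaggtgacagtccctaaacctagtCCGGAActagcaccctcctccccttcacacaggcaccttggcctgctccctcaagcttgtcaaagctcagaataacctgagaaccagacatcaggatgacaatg
The Chrna1, Musk and Chrnb1 windows each held 3 matches to CANNTG, as did 16.6% of all 33469 RefSeq promoter windows of this length with 3 or more, and the Chrne window held 1, as at least 1 was found in 72.1% of windows. Each of the 4 held CAGCTG, a form of CANNTG found in 15.1% of windows. CCGGAA was present in Chrne alone of the 4, 54 bases before the start site, and in 15% of all windows.

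Chrna1 encodes the alpha subunit of the acetylcholine receptor. It was 3.34, 6.51 and 16.8 CPM at 8 months and 13.0, 44.8 and 139 CPM at 18 months, and 9 of 10 early-sarcopenic rats exceeded every adult. Its log2 fold change was 2.71 (SE 0.42 and adjusted p = 1.61e-05). Musk, the receptor kinase for agrin, rose in every rat above the adult range, from 1.13, 2.25 and 3.41 CPM to 4.80, 9.90 and 19.9 CPM (2.14, SE 0.26 and adjusted p = 6.22e-08), with rats 14 and 17 highest at 18.2 and 19.9 CPM. The log2 fold change of Musk was 1.71 without rats 4, 14 and 17.

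Chrnb1, the beta subunit, changed less. It was 58.1, 65.6 and 77.0 CPM and then 68.9, 89.7 and 134 CPM, a log2 fold change of 0.46 (SE 0.10 and adjusted p = 2.51e-03) with overlapping groups. Erbb2, a subunit of neuregulin receptors, rose from 0.716, 1.32 and 1.80 CPM to 1.33, 2.69 and 5.36 CPM (1.21, SE 0.27 and adjusted p = 2.82e-03), with 8 of 10 rats above all adults. Chrne, the receptor subunit of the adult junction, was 5.07, 7.97 and 15.1 CPM and then 9.83, 11.9 and 28.4 CPM, a difference of 0.72 on the log2 scale that missed the threshold (SE 0.28 and adjusted p = 0.133).

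**Figure D3:**
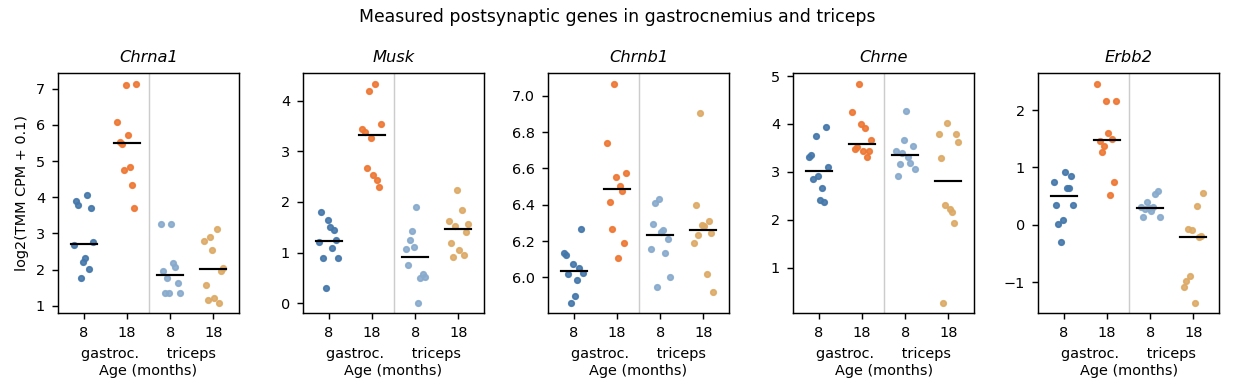
Levels of the 5 measured postsynaptic genes as log2(CPM + 0.1) in each library of gastrocnemius (left pair) and triceps (right pair) at 8 and 18 months, 10 rats each, with a line at the median. Musk in gastrocnemius is apart between the ages, while the ages overlap in triceps in Chrna1, Musk and Chrnb1.

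Of 23 genes listed for the denervation response and myogenic regulation, 18 were measured, 8 rose and none fell at an adjusted p below 0.05 (edgeR; at an unadjusted p below 0.05, 12 and 0, and by DESeq2 8 and 0), with a median of 0.65. Runx1, Hdac4, Ncam1, Gadd45a, Kcnn3, Ankrd1, Tnnt2 and Hes6 were the 8. Gadd45a, which brings about fibre atrophy after denervation, was 10.1, 18.0 and 21.6 CPM and then 20.8, 63.5 and 192 CPM (2.37, SE 0.32 and adjusted p = 1.27e-06), with 9 of 10 rats above all adults. Ncam1, the neural cell adhesion molecule, rose without overlap from 8.41, 15.4 and 21.5 CPM to 25.7, 48.5 and 116 CPM (1.93, SE 0.27 and adjusted p = 1.66e-06). Kcnn3, a calcium-activated potassium channel of denervated fibres, rose without overlap too, from 10.3, 18.7 and 20.3 CPM to 24.9, 40.7 and 68.8 CPM (1.35, SE 0.18 and adjusted p = 1.27e-06). The myogenic factors Myod1 and Myf5 had log2 fold changes of 0.63 (adjusted p = 0.079) and 0.46 (adjusted p = 0.291). Both measured satellite cell markers, Myf5 and Chodl, summed to 9.19 to 22.3 CPM in adults and 6.24 to 21.9 CPM in early-sarcopenic rats.

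Of the p53 targets and kinase inhibitors, 14 of 19 were measured and 10 rose, 7 of them above 2-fold. None fell at an adjusted p below 0.05 (edgeR; 2 fell at an unadjusted p below 0.05, and 0 by DESeq2), and the median was 0.94. The 10 held 4 cyclin-dependent kinase inhibitors. Beside Cdkn1a, Cdkn1c (p57) rose without overlap from 3.86, 5.73 and 7.15 CPM to 8.19, 13.6 and 31.5 CPM (1.38, SE 0.19 and adjusted p = 1.05e-06). Cdkn2b (p15) was 1.05, 2.42 and 4.95 CPM and then 4.46, 8.79 and 33.6 CPM, with rats 14, 17 and 20 at 26.5 to 33.6 CPM (2.27, SE 0.37 and adjusted p = 2.72e-05, and 1.86 without rats 4, 14 and 17). Cdkn2a (p16 and ARF) had a log2 fold change of 2.25 (adjusted p = 4.47e-03) at a mean of 0.110 and 0.575 CPM at 8 and 18 months. Tp73, a relative of p53, was 0.0227 CPM on average in adults and 0.585 CPM in early-sarcopenic rats (adjusted p = 8.1e-04). Eda2r, a receptor of the tumour necrosis factor family, rose from a mean of 9.63 to 42.3 CPM, without overlap (2.13, adjusted p = 4.21e-05). Of the 14, 7 rose without rats 4, 14 and 17, and Cdkn2a had an adjusted p of 0.0609 then.

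Ubiquitin ligases of muscle atrophy moved in both directions. Of 8 measured (12 listed), 3 rose and 1 fell, and the median was -0.05 (0.025 with library totals in place of TMM). Fbxo30, known as MUSA1 and induced on denervation, was 13.9, 17.9 and 23.3 CPM and then 15.1, 33.5 and 61.8 CPM (1.05, SE 0.18 and adjusted p = 6.98e-05). Its fold was under 2 without rat 14, 15 or 20, and also without rats 4, 14 and 17 (log2 fold change 0.94). Nedd4 was 615, 686 and 814 CPM and then 675, 859 and 1041 CPM (0.33, SE 0.08 and adjusted p = 8.45e-03), and Trim55, a RING protein of the sarcomere, 72.4, 81.6 and 105 CPM and then 79.5, 111 and 127 CPM (0.35, SE 0.10 and adjusted p = 0.0221). Both overlapped between ages, Trim55 missed the threshold without rat 15 or 20, and the calls of Nedd4 and Trim55 were lost without rats 4, 14 and 17 (adjusted p = 0.117 and 0.149). Mul1, a ligase of the mitochondrial outer membrane, fell from a mean of 51.3 to 41.6 CPM (adjusted p = 0.0484, and 0.0779 without those 3 rats).

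Among growth and neurotrophic factors, 17 of 24 were measured, 7 rose and 1 fell, and the median was 0.08. Artn, artemin, a ligand of the GDNF family, was 0, 0.266 and 0.653 CPM and then 0.505, 1.26 and 2.73 CPM (2.37, SE 0.39 and adjusted p = 4.02e-05), from 54 and 329 reads. Fst, follistatin, which binds myostatin and activin, rose from 3.13, 4.41 and 4.99 CPM to 4.52, 9.07 and 20.3 CPM (1.35, SE 0.26 and adjusted p = 4.11e-04), above all adults in 9 of 10 rats. Igf2 rose from 40.4, 61.4 and 93.6 CPM to 76.4, 109 and 193 CPM (1.01, SE 0.21 and adjusted p = 1.83e-03). Fgf7, Chrd, Tgfb2 and Sema3a were the other rises. Ntf4, neurotrophin 4, fell from a mean of 3.61 to 2.22 CPM (-0.71, adjusted p = 0.0154). Without rats 4, 14 and 17, 5 rose and none fell at an adjusted p below 0.05 (edgeR). Ntf4, Tgfb2 and Sema3a had adjusted p of 0.0534, 0.0688 and 0.0992 then, and the log2 fold change of Igf2 was 0.97, under the 2-fold limit.

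Immune and antigen presentation genes rose in 9 of 22 measured (31 listed), 3 above 2-fold, with a median of 0.73 and none lower at an adjusted p below 0.05 (edgeR; 0 at an unadjusted p below 0.05 and by DESeq2). Sirpa, an inhibitory receptor of myeloid cells that binds CD47, was 20.99, 22.7 and 25.3 CPM and then 25.6, 41.6 and 71.8 CPM, without overlap (1.04, SE 0.15 and adjusted p = 3.27e-06). Its fold was under 2 without rat 11, 15 or 20. B2m, the light chain of MHC class I, rose without overlap from 336, 399 and 447 CPM to 456, 651 and 982 CPM (0.84, SE 0.13 and adjusted p = 1.37e-05). Cd28, the T cell costimulatory receptor, was 0.179, 0.994 and 2.29 CPM and then 0.902, 3.06 and 6.75 CPM (1.86, SE 0.30 and adjusted p = 2.38e-05). The 4 measured macrophage markers of 7 (Adgre1, Cx3cr1, Clec7a, Aif1) summed to 19.0 to 33.0 CPM in adults and 21.6 to 43.4 CPM in early-sarcopenic rats, none was without reads in either group, and Clec7a was the 1 that rose (0.89, adjusted p = 0.0361). Of the 22 immune genes 7 rose without rats 4, 14 and 17, and Clec7a had an adjusted p of 0.0684 then. The part of macrophage markers in these results was not tested.

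Of 32 measured genes of the extracellular matrix (40 listed) 7 rose, 3 above 2-fold, and none fell at an adjusted p below 0.05 (edgeR; 1 at an unadjusted p below 0.05, 0 by DESeq2), with a median of 0.32. Col19a1, a minor collagen that muscle makes, was 0.239, 0.665 and 1.21 CPM and then 1.23, 3.20 and 7.41 CPM (2.21, SE 0.40 and adjusted p = 2.10e-04), without overlap. Ltbp1, which holds latent TGF-beta in the matrix, was apart between ages as well, at 27.6, 36.6 and 45.4 CPM and then 50.0, 56.0 and 103 CPM (0.89, SE 0.17 and adjusted p = 4.56e-04). Adam19, a membrane protease that processes neuregulin, was 13.3, 24.7 and 30.2 CPM and then 23.8, 43.1 and 60.4 CPM (0.90, SE 0.17 and adjusted p = 4.43e-04). The fibrillar collagens Col1a1 and Col3a1 had log2 fold changes of 0.43 (adjusted p = 0.456) and 0.30 (adjusted p = 0.561).

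In glutathione and oxidant defence, 4 of 10 measured genes rose (16 listed), each above 2-fold, and none fell at an adjusted p below 0.05 (edgeR; 4 at an unadjusted p below 0.05, 0 by DESeq2). The median log2 fold change was 0.11, and 5 of the 10 were positive. Their summed level had a median of 784 CPM at 8 months and 683 CPM at 18 months. Mgst2, a microsomal glutathione transferase, was 0.916, 1.91 and 2.39 CPM and then 1.92, 3.58 and 11.6 CPM (1.43, SE 0.28 and adjusted p = 4.80e-04). Gstt3, a theta-class transferase, was 2.53, 5.79 and 9.96 CPM and then 7.59, 10.8 and 21.6 CPM (1.08, SE 0.22 and adjusted p = 1.12e-03). Hmox1, haem oxygenase 1, was 4.65, 9.56 and 12.1 CPM and then 9.48, 13.1 and 34.6 CPM (1.02, SE 0.24 and adjusted p = 5.06e-03). Groups overlapped in all 3. The fold of Gstt3 was under 2 without rat 3 or 20. Hmox1 was under that limit without rat 1, 6, 11, 15, 16 or 20. Gstm3 was the fourth rise, while Sod2 and Prdx5 of the mitochondria had values of -0.28 (adjusted p = 0.113) and -0.24 (adjusted p = 0.228).

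Of 4 polyamine genes measured (8 listed), Sat1, the acetyltransferase that begins polyamine breakdown, rose from 21.5, 28.8 and 46.2 CPM to 33.2, 44.3 and 108 CPM (1.09, SE 0.21 and adjusted p = 6.10e-04). Rats 14, 15, 17 and 20 held 101 to 108 CPM, and the other 6 rats of 18 months held at most 44.8 CPM. Amd1, which makes the aminopropyl donor for polyamine synthesis, fell from 62.1, 76.3 and 91.5 CPM to 43.7, 60.3 and 71.8 CPM (-0.38, SE 0.09 and adjusted p = 5.90e-03). Azin1, which frees ornithine decarboxylase from its inhibitor, had a value of 0.23 (SE 0.11 and adjusted p = 0.263). The rise of Sat1 was 0.93 without rats 4, 14 and 17.

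All 35 measured genes of oxidative phosphorylation (70 listed) had a negative log2 fold change, between -0.35 and -0.18 with a median of -0.30, also under the other scalings, but none passed (edgeR; 27 at an unadjusted p below 0.05, 0 by DESeq2 and by limma voom at an adjusted p below 0.05). Uqcrfs1, the Rieske protein of complex III, was 568, 693 and 733 CPM and then 396, 516 and 701 CPM (-0.34, SE 0.12 and adjusted p = 0.104). Ndufa6 and Atp5j2, of complex I and the ATP synthase, had values of -0.30 (adjusted p = 0.116) and -0.32 (adjusted p = 0.119). All 34 measured genes of the citrate cycle and fatty acid oxidation were negative as well, with a median of -0.27 and none past the test (edgeR; 20 at an unadjusted p below 0.05, 1 by DESeq2), although with library totals 2 of the 34 turned positive and without rats 4, 14 and 17 1 did. Fh (fumarase), Pdhx and Dld (pyruvate dehydrogenase) lay closest to the threshold, at -0.39, -0.30 and -0.34 with adjusted p of 0.0541, 0.0685 and 0.0751. The 8 measured fibre markers were all negative as well, with a median of -0.23 and none past the test (edgeR; 1 at an unadjusted p below 0.05, 0 by DESeq2), and the 4 endothelial markers had a median of -0.24. Their part in these values was not tested. The uniform signs are over genes named through the study's list, so they are not independent evidence of a direction. Ndufs1 of complex I, among the 430 genes lower in all of rats 4, 14 and 17, was 364 to 441 CPM in them and at least 445 CPM in the other 17.

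Glycolysis and contraction genes were mostly lower too. Of 19 measured glycolysis and glycogen genes (23 listed) all were negative and 2 fell, with a median of -0.27. Pfkfb1, which makes the activator of phosphofructokinase, went from 81.0, 108 and 168 CPM to 35.4, 68.1 and 97.7 CPM (-0.73, SE 0.21 and adjusted p = 0.0263), and Ugp2, which makes UDP-glucose, from 352, 496 and 569 CPM to 246, 372 and 517 CPM (-0.43, SE 0.13 and adjusted p = 0.0379). The call of Pfkfb1 was lost without rat 1, 5, 11, 15 or 20 and that of Ugp2 without rat 3, 7, 9, 10, 11, 12, 15 or 20, and Pfkfb1 had an adjusted p of 0.102 without rats 4, 14 and 17. Pfkm, the phosphofructokinase of muscle, was 3153, 4018 and 5014 CPM and then 1682, 3251 and 4228 CPM (-0.45, SE 0.16 and adjusted p = 0.111). Of 25 measured genes of excitability and contraction (28 listed), 2 fell and 1 rose. Lmod3, the actin nucleator leiomodin 3, fell without overlap from 254, 304 and 364 CPM to 143, 212 and 246 CPM (-0.59, SE 0.12 and adjusted p = 1.15e-03). Kcna7, a potassium channel, fell from 117, 132 and 174 CPM to 62.4, 99.9 and 143 CPM (-0.56, SE 0.15 and adjusted p = 0.0182), a call lost without rat 15 or 20 and without rats 4, 14 and 17 (adjusted p = 0.0738). Cacnb1, the beta subunit of the calcium channel of the triad, rose from 147, 179 and 261 CPM to 186, 236 and 419 CPM (0.39, SE 0.12 and adjusted p = 0.0477), a call lost without any 1 of 12 rats and without rats 4, 14 and 17 (adjusted p = 0.167).

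Mitosis genes were read at low levels, and their summed level had a median of 60.9 CPM at 8 months and 59.7 CPM at 18 months. Of 44 measured (46 listed), 41 had a positive log2 fold change, the median was 0.68, and 1 rose and none fell at an adjusted p below 0.05 (edgeR; 18 up and 2 down at an unadjusted p below 0.05, and 3 up and 0 down by DESeq2). Plk4, the kinase of centriole duplication, was 0.141, 0.395 and 0.670 CPM and then 0.309, 0.780 and 1.57 CPM, from 80 and 173 reads (0.95, SE 0.27 and adjusted p = 0.0268). Its call was lost without rat 3, 8, 15 or 20. Kif18b and Iqgap3 had values of 1.52 (adjusted p = 0.0540) and 0.82 (adjusted p = 0.0541).

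To see which changes came first, the values of the next interval, 18 to 24 months, were set beside those of the first. The first interval was longer than the second. Values and counts are for whole intervals and were not scaled by their length, so they do not compare rates of change. Both intervals share the 18-month libraries. By the same call, 261 genes rose (1.75%) and 140 fell (0.937%) in the second interval, together 2.68%. With library totals in place of TMM the split was 635 and 79, a scaling that shifted the median of all genes by 0.265 on the log2 scale. Of the 200 genes that rose in the first interval, 90 rose further and 7 fell at an adjusted p below 0.05. Of the 35 that fell, 2 fell further and 1 rose. Cdkn1a gained a further 1.26, Chrna1 1.48, Musk 0.69 and Col19a1 1.90 on the log2 scale, each past the test, whereas Ctxn3 (0.77, adjusted p = 0.0799), Prrt4 (0.87, adjusted p = 0.181), Ankrd1 (1.24, adjusted p = 0.0800) and Cdkn2b (0.64, adjusted p = 0.179) did not pass it.

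The gene lists differed in when their members passed. For postsynaptic genes 4 of 5 rose in the first interval and 3 in the second, and for p53 targets and kinase inhibitors 10 of 14 rose in the first and 7 in the second, with 2 lower. For mitosis the counts that rose were 1 and 20 of 44, for the extracellular matrix 7 and 23 of 32, and for immune genes 9 and 15 of 22. Genes that fell numbered 2 and 18 of 19 for glycolysis, 2 and 22 of 25 for excitability and contraction, 0 and 12 of 35 for oxidative phosphorylation and 0 and 10 of 34 for the citrate cycle and fatty acid oxidation. Of the 8 measured markers of skeletal muscle fibres, 0 and 8 fell, with medians of -0.23 and -0.88. Of the 4 macrophage markers, 1 and 4 rose. The part of these markers in the counts was not tested. The background of genes that fell was 1.22% in the first interval and 12% in the second, and of those that rose 3.41% and 8.8%. Among genes with a symbol 5.41% and 39.9% fell, and 13.5% and 22.9% rose. Medians in the second interval were 0.69 for the postsynaptic list, 0.63 for p53 targets, 0.85 for mitosis, 0.62 for the matrix, -0.97 for glycolysis, -0.76 for excitability and contraction and -0.33 for oxidative phosphorylation. For immune genes the medians of the 2 intervals were 0.73 and 0.74, and for the citrate cycle and fatty acid oxidation -0.27 and -0.28. Those lists thus differed in counts and hardly in median. In the denervation list 8 and 9 of 18 rose, with medians of 0.65 and 0.66, and 2 fell in the second interval.

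**Figure D4:**
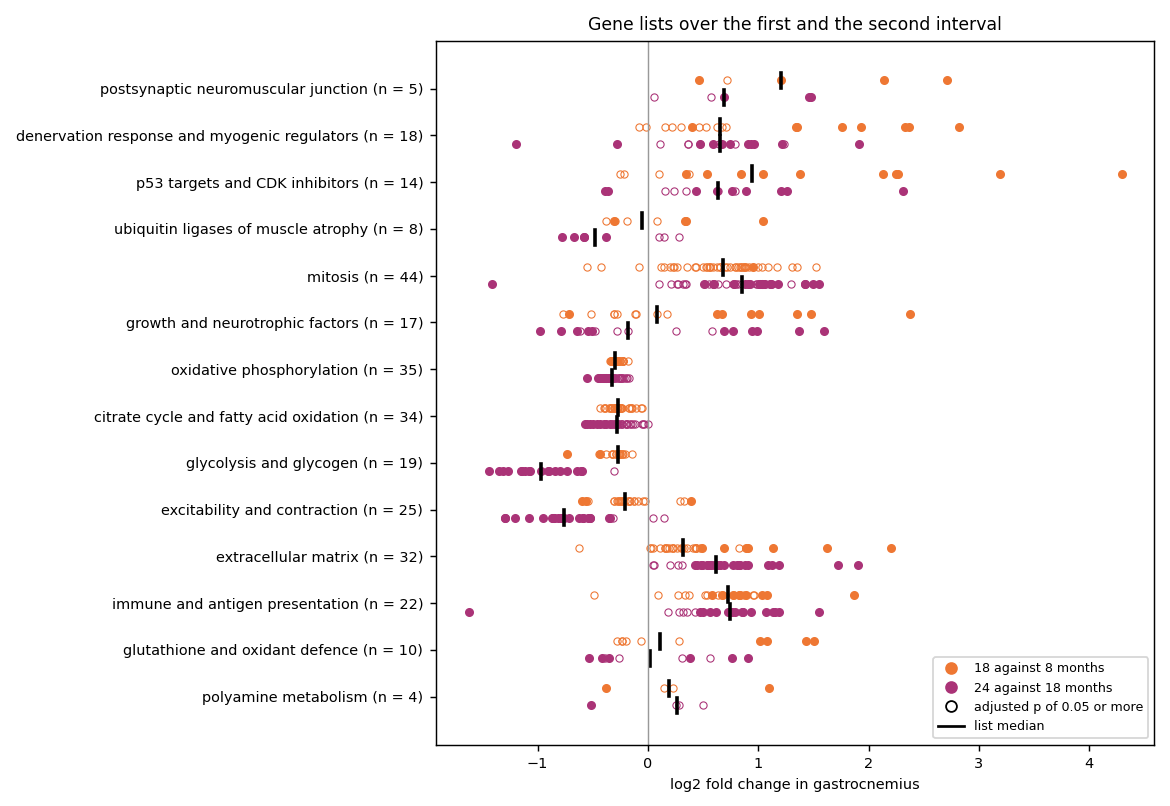
Log2 fold change of each measured list member in gastrocnemius, orange for 18 against 8 months and purple for 24 against 18 months, filled where the adjusted p is below 0.05, with a bar at the list median. Glycolysis has a median of -0.27 in the first interval and -0.97 in the second, and the postsynaptic list 1.21 and 0.69.

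A test of the difference itself, the change of the first interval minus that of the second, passed in 15 genes (0.1%), all positive (edgeR). By limma voom 0 passed, and by DESeq2 14 positive and 1 negative. At an unadjusted p below 0.05, edgeR gave 931 positive and 357 negative genes, together 8.62%. No member of the lists was among the 15, so the differences in timing between lists are differences in counts. At an unadjusted p below 0.05, 13 of the 19 glycolysis genes, 14 of the 25 of excitability and contraction and 2 of the 5 postsynaptic genes were positive, against 6.23% of all genes and 14.4% of genes with a symbol. For genes that fell, as most of the former 2 lists did, a positive value means a larger fall in the second interval. In the postsynaptic list, which rose, it means a larger rise in the first. The difference is between whole changes over intervals of unequal length, so a faster change in either interval was not tested. Among genes with a symbol, Ctxn3 had the larger rise in the first interval, with 3.75 and then 0.77 (unadjusted p = 0.0209), and medians of 26.9 and 48.9 CPM at 18 and 24 months (difference 2.98, adjusted p = 5.25e-03). Ric3, a chaperone of acetylcholine receptor assembly, rose by 0.62 (adjusted p = 0.0144, and 0.0646 without rats 4, 14 and 17) and then fell by 0.81, from a median of 2.74 to 4.37 and then 2.3 CPM (difference 1.43, adjusted p = 7.96e-03).

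The other 3 named genes passed through a late fall. Kcnh1, a voltage-gated potassium channel active in myoblasts, had medians of 5.66, 7.98 and 2.25 CPM at 8, 18 and 24 months (difference 2.53, adjusted p = 0.0185). Tmem132b had medians of 0.877, 1.73 and 0.283 CPM (difference 3.20, adjusted p = 0.0322), and Cd55, which protects cells from complement, 95.4, 101 and 55.5 CPM (difference 0.91, adjusted p = 0.0497). Neither Kcnh1 (adjusted p = 0.436), Tmem132b (0.160) nor Cd55 (0.910) passed in the first interval. In the negative direction Fam92a1, Diras3, Stk17b, Tspan6 and Peg3 lay nearest, with differences of -1.11, -1.43, -0.79, -0.49 and -0.67 and adjusted p of 0.0870, 0.197, 0.251, 0.269 and 0.284. Without rats 4, 14 and 17, 6 genes passed, none with a symbol, and the adjusted p of Ctxn3 was 0.111. Leaving out 1 rat gave 27 genes without rat 11, 29 without rat 20, 6 without rat 13 and 9 without rat 17 or 18. Of the 10 genes without a symbol among the 15, 5 had no read in at least 5 of the 18-month libraries.

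Triceps of the same rats allowed the change to be compared between a hindlimb and a forelimb muscle. The muscles differed in their change from 8 to 18 months in 47 genes (0.314%; edgeR with rat as a block), 42 of them more positive in gastrocnemius (0.281%) and 5 more positive in triceps (0.0335%). Of the 47, 38 rose and 2 fell in gastrocnemius at an adjusted p below 0.05, and 25 did so above 2-fold. In triceps 0 of the 47 passed (edgeR; 4 at an unadjusted p below 0.05). Without rats 4, 14 and 17, 13 genes passed, among them Cdkn1a, Ctxn3, Tmem158, Ncam1, Erbb2, Hdac4 and Sesn3. Leaving out 1 rat at a time gave 13 to 59 genes, with 18 to 26 without rat 1, 3, 4, 5, 6, 9 or 10, 24 without rat 11, 20 without rat 15 and 13 without rat 20.

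Cdkn1a was 18.2, 24.4 and 103 CPM in triceps of 8 months and 25.9, 43.6 and 77.2 CPM at 18 months. Its log2 fold change was 0.53 in triceps and 3.19 in gastrocnemius, a difference of -2.41 (SE 0.36 and adjusted p = 1.41e-03). Ctxn3 was 0.782, 1.36 and 2.10 CPM and then 0.590, 1.57 and 3.28 CPM in triceps, and the difference was -3.28 (SE 0.49 and adjusted p = 1.41e-03). Ncam1 was 6.83, 9.96 and 17.3 CPM and then 4.46, 11.2 and 18.6 CPM, a difference of -1.84 (SE 0.35 and adjusted p = 0.0145). In all 3 the ages overlapped in triceps.

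Of the postsynaptic genes, Musk (-1.54, SE 0.30 and adjusted p = 0.0160) and Erbb2 (-1.84, SE 0.34 and adjusted p = 0.0106) differed between the muscles. Musk was 0.910, 1.80 and 3.62 CPM in triceps of 8 months and 1.78, 2.66 and 4.61 CPM at 18 months. Erbb2 was 0.998, 1.13 and 1.40 CPM and then 0.292, 0.768 and 1.37 CPM there. The difference of Musk was -1.15 without rats 4, 14 and 17 (adjusted p = 0.0959), and that of Erbb2 was -1.93 (adjusted p = 8.61e-03). Chrna1, with a difference of -2.51 (SE 0.65 and adjusted p = 0.0921), Chrnb1 (-0.38, SE 0.11 and adjusted p = 0.152) and Chrne (-1.27, SE 0.40 and adjusted p = 0.193) missed the threshold.

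Of the denervation list 5 genes differed, of p53 targets and kinase inhibitors 3, of growth factors, matrix and postsynaptic genes 2 each, and of ubiquitin ligases and immune genes 1 each. Of the 47 genes 42 had a symbol, 1.94% of the genes with one, against 0.314% of all genes. The list that gives symbols was drawn from these same libraries by age in both muscles, so these counts are a description. The median change in triceps was 0.01 for the postsynaptic list, 0.03 for the denervation list and 0.17 for p53 targets, beside 1.21, 0.65 and 0.94 in gastrocnemius. Among the 5 genes more positive in triceps were Dtnbp1 and Snx3, which act in membrane traffic, with differences of 0.43 and 0.38.

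**Figure D5:**
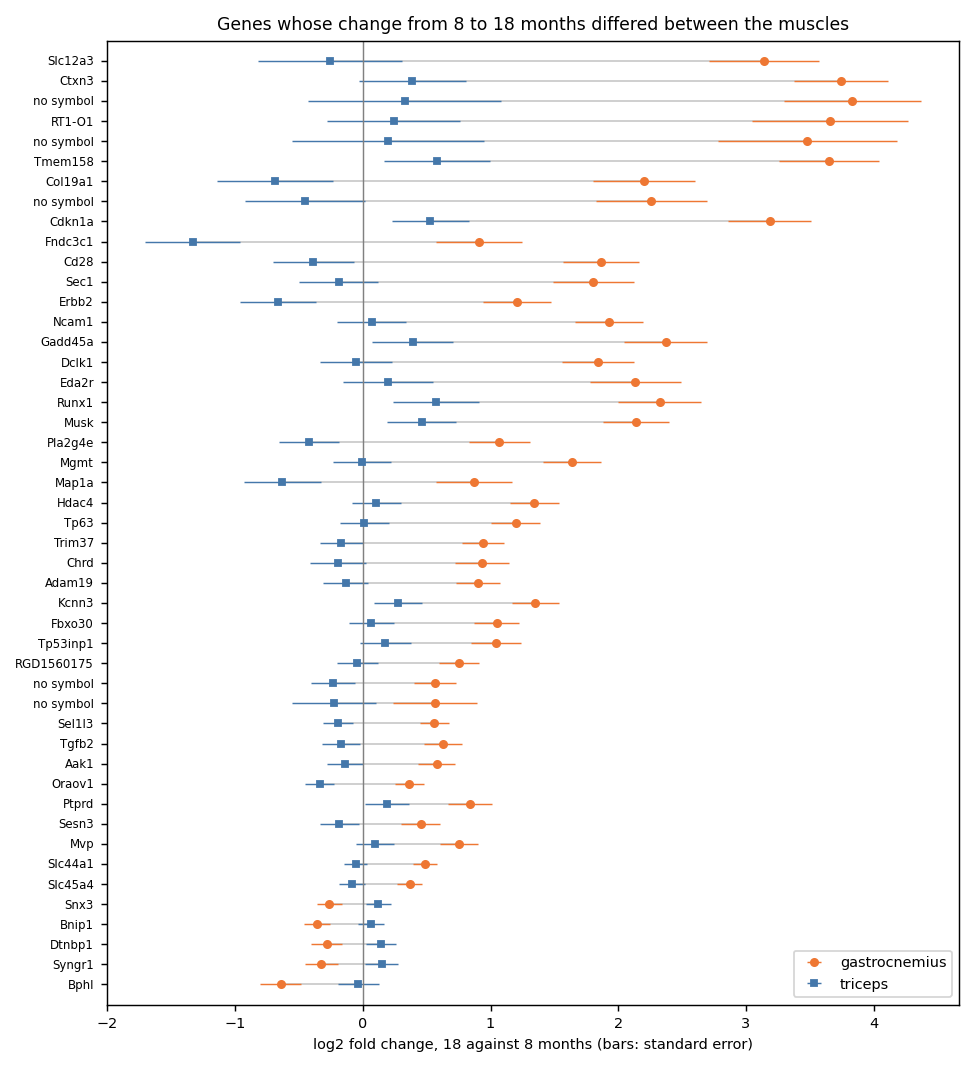
Log2 fold change from 8 to 18 months in gastrocnemius (circles) and triceps (squares) with standard errors, for the 47 genes whose change differed between the muscles, sorted by the difference. In 42 genes the gastrocnemius value lies to the right, and the difference reaches -3.46 in Slc12a3.

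The rats of 18 months were not alike. Over the 200 genes that rose, a set fixed by the same contrast, the number above every 8-month rat ran from 92 (46%) in rat 19 through 105 in rat 18, 112 in rats 12 and 16, 130 in rat 13, 147 in rat 17, 153 in rat 14, 157 in rat 11 and 172 in rat 15 to 176 (88%) in rat 20. Rat 14 had the smallest library of 18 months, with 12767191 reads, and rat 15 the largest, with 32351192. Of the 15 genes named above as the largest rises or postsynaptic genes, rats 11, 14 and 15 exceeded every adult in all 15 and rat 19 in 8. Chrna1 was highest in rats 15 and 20 (138 and 139 CPM) and lowest in rats 18 and 19 (20.2 and 13.0 CPM), whereas Musk was highest in rats 14 and 17.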

How the data were processed

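RNA of gastrocnemius and triceps from 29 rats (58 libraries) was sequenced from TruSeq libraries. Per the labels and the study's methods, the authors aligned reads with STAR 2.3.0e to Rnor_6.0 and counted them per gene with HTSeq. The strand setting and annotation release were not given in the sources used here, so overlapping and antisense genes are uncertain. The deposited values are whole-number read counts per gene, not normalized. The groups compared, the gene lists and the naming rule were chosen with earlier results of these data known.

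Genes with at least 20 reads in 1 library were kept (14947 of 32545), scaled by TMM and tested with the quasi-likelihood test of edgeR 4.0.16 in R 4.3.3, in 1 fit of all 58 libraries in 6 groups. Rat, which the labels give for both muscles, was a block for the difference between the muscles. Limits were an adjusted p of 0.05 (Benjamini-Hochberg) and, for age, a fold of 2. Named were the 10 largest rises and falls with a symbol, all measured postsynaptic genes, the 3 smallest p of each other list, 2 rises and 2 falls without a symbol, and 5 genes each way of the interval contrast. Other genes were named after their values were seen. Counting precision is limited by 12767191 to 32351192 reads a library. DESeq2 1.42.0, limma 3.58.1, other filters and scalings, and leaving out each rat were alternatives. On simulated counts of 14440 genes for the comparison of 18 with 8 months, all 200 genes changed 4-fold were recovered, with 2 false calls. The interval contrast and the difference between the muscles also recovered 200, with 10 and 4 false calls. The genes were changed only in the 18-month gastrocnemius libraries, so for the interval contrast each change was fully reversed in the second interval. A change that lasted through the second interval was not simulated. The simulated libraries held no shared effect of a rat, no difference between muscles and no library set apart. Smaller changes and such effects were therefore not tested by it. No 2 libraries of a group agreed within counting noise.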

Additional observations from a re-analysis of the deposited data

Results flagged for a closer look

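In 136 checks of a gene's levels over a group of 10 libraries, 5 values in 4 libraries lay far from the others. Chance gives about 1 in 20, or 6.8 of the 136, so the number is no excess. These were Dld in rat 4 (272 CPM, lowest of 8 months), Cd28 in rat 4 (0.179 CPM, lowest of 8 months) and in rat 17 (0.902 CPM, lowest of 18 months), Mgst2 in rat 10 (0.916 CPM, lowest of 8 months) and Hmox1 in rat 1 (4.65 CPM, lowest of 8 months).

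For 14 named genes the muscles differed in their change from 8 to 18 months, by the test of the difference itself. On the log2 scale, triceps minus gastrocnemius, the values were -3.28 for Ctxn3, -2.80 for Tmem158, -2.41 for Cdkn1a, -3.46 for Slc12a3, -1.54 for Musk and -1.84 for Erbb2. They were -1.75 for Gadd45a, -1.03 for Kcnn3, -1.84 for Ncam1, -0.90 for Fbxo30, -2.79 for Col19a1, -1.04 for Adam19, -2.17 for Cd28 and -3.25 for ENSRNOG00000032857. Without rats 4, 14 and 17 the difference still passed for Cdkn1a, Tmem158, Erbb2, Ctxn3 and Ncam1 and did not for the other 9.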

How the results depend on the processing

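No called value of a named gene changed sign under the alternatives run. Among values not called, the median of the ubiquitin ligases went from -0.05 to 0.025 with library totals, that of the growth factors from 0.08 to -0.065 without rats 4, 14 and 17 (-0.059 without rat 11, -0.064 without rat 17), and the first-interval value of Cd55 from 0.04 to -0.03 at the lowest. The 235 regulated genes of the first interval became 129 with limma voom and 693 with no fold limit, and 176 to 254 with 1 rat left out. The 401 of the second became 714 with library totals and 3109 with no fold limit, and 310 to 506 with 1 rat left out. The 15 genes of the interval contrast became 0 with limma voom (1190 at an unadjusted p below 0.05), 9 with edgeR's expression filter, 5 with gastrocnemius libraries alone and 6 without rats 4, 14 and 17, and 6 to 29 with 1 rat left out. The 47 genes that differed between the muscles became 132 with DESeq2, 8 with limma voom, 25 with no replicate block (rat left out of the model) and 13 without rats 4, 14 and 17, and 13 to 59 with 1 rat left out. Leaving out rats 4, 14 and 17 together was chosen after seeing the data. The cause of these shifts was not tested. The labels do not say that same-numbered rats of 8 and 18 months share anything, so they were not treated as pairs. Of the 10 correlations of their deviations, 7 were over 0.1 (-0.0199 to 0.668, mean 0.216). For gastrocnemius and triceps of the same rat, 16 of 20 were over 0.1 (-0.219 to 0.515, mean 0.233). Known pairs gave similar values, so these correlations cannot decide whether same-numbered rats were paired. That 5 of 10 correlated best with their own number is a hint from the data, not the design. With that number as a replicate block the counts were 199, 464 and 14. Over all named genes and lists, 217 values lost and 39 gained a call among the alternatives. Library totals shifted the median of all genes by 0.095 in the first and 0.265 in the second interval. Low genes such as Krt18, with 14 reads over 10 adult libraries, set the limit of depth.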

Other observations

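Some list members that the naming rule did not reach were chosen here after their values were seen. Runx1, a transcription factor induced in denervated muscle, rose from a mean of 5.19 to 26.0 CPM without overlap between the ages (log2 fold change 2.33, edgeR adjusted p = 1.66e-06), and Hdac4, a repressor that links nerve activity to muscle genes, from 17.9 to 45.5 CPM, also without overlap (1.34, adjusted p = 2.61e-06). Nlrc5, which switches on MHC class I genes, rose from a mean of 3.51 to 7.40 CPM (1.08, adjusted p = 9.46e-05). In the extracellular matrix, Cilp, a secreted protein of cartilage, rose from a mean of 57.6 to 177 CPM (1.62, adjusted p = 1.18e-03), and Lama5, a laminin chain of basement membranes, from 30.9 to 49.9 CPM (0.69, adjusted p = 9.88e-04), with overlapping ages in both.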
